A study of Homo sapiens with 12 samples.

Results

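The comparison described here is the I-tail deletion in prolactin-treated cells: 3 libraries of MCF10AT cells with the I-tail deleted were set against 3 libraries with it intact, all 6 after prolactin (PRL). Members are the libraries whose labels give the PRL treatment, 6 of the 12 in the series. The other 6 are their untreated counterparts, 3 for each receptor pair. MCF10AT is a RAS-transformed derivative of the human MCF10A mammary epithelial line. Every culture expressed human long PRL receptor (hPRLrL) together with the human intermediate receptor (hPRLrI), which was either whole (hPRLrL/hPRLrI, here "intact") or lacked its I-tail (here "deleted"). All cultures, controls included, were starved of serum for 24 h. The treated ones then received 250 ng/ml PRL for 2 h. The labels speak of 3 biological replicates, and sample titles fall into 3 consecutive runs of 4, each with 1 library per group. The labels do not say what a title run is, whether the lines are clones or pools, or how the receptors were expressed. If each receptor pair is 1 line, any other difference between the lines cannot be told apart from the deletion. Poly(A)-selected RNA was sequenced and the authors deposited a table of raw counts per gene, of which 17677 genes passed a filter on low counts.

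PRL receptors are single-pass cytokine receptors without kinase activity of their own. Hormone binding activates the associated kinase JAK2, which phosphorylates STAT5, and STAT5 then drives genes such as CISH and the SOCS inhibitors that feed back on the receptor. Isoforms of the human receptor share the hormone-binding part and differ in the cytoplasmic tail, the intermediate isoform ending in a short sequence of its own, the I-tail. In breast epithelium the hormone is known for alveolar differentiation and milk protein expression, and the RAS-MAPK and SRC pathways act beside STAT5 downstream of the receptor.

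Total counts in the 6 PRL libraries ran from 36120808 to 45121177. Genes with at least 1 count numbered 24477, 19073 and 21761 in intact libraries 1, 2 and 3, and 24844, 21089 and 22852 in deleted libraries 1, 2 and 3. The intact library of run 2 stood apart with the fewest genes and the lowest TMM scaling factor, 0.79. Epithelial keratins were abundant: KRT5 ran from 340.2 to 3331 CPM (counts scaled to library size with TMM) over the 6. ADIPOQ and PGR were at 0 in all 12 libraries, and the leukocyte genes PTPRC and CD3E in all 6 PRL libraries, while CD14 and CSF1R, known from myeloid cells, were detected in all 6, CD14 at 17.5 to 30.3 CPM and CSF1R at 22.4 to 47.7 CPM. The summed level of the 13 listed leukocyte markers, 5 of them tested, was 57.3 to 64.8 CPM in intact and 53.7 to 66.03 CPM in deleted libraries. That of the 10 listed fibroblast markers, 7 of them tested, was 429 to 479 CPM in intact and 483 to 620.2 CPM in deleted libraries. A sum weighs abundant members most: over the 6, DCN ran from 220.3 to 471.8 CPM and COL1A1 from 127 to 237.7 CPM. In bulk libraries, fewer cells of a type and less RNA per cell cannot be told apart.

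PRLR, the receptor itself, stood at 3891, 3959 and 3099 CPM in intact libraries 1, 2 and 3, and at 3761, 3133 and 3759 CPM in the deleted ones. The ranges overlapped, and the difference of deleted minus intact was -0.04 ± 0.13 on the log2 scale (standard error, edgeR adjusted p = 0.933). A count per gene sums the introduced isoforms with any PRLR the cells made themselves and does not show the I-tail, so it does not check which receptor a library carried.

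One gene of 17677, EWSAT1, passed an adjusted p of 0.05 for the deletion in PRL-treated cells (0.00566% of the genes tested). At an unadjusted p of 0.05, 626 genes (3.54%) were higher and 682 (3.86%) lower with the deletion. A higher value in each of the 3 runs was seen for 2576 genes (14.6%) and a lower one for 2293 (13%). The 3 deleted libraries all lay above the 3 intact ones for 511 genes (2.89%) and all below for 364 (2.06%). The median 95% confidence interval of a gene's log2 difference reached 0.44 to either side. That interval is not adjusted for the 17677 genes tested, so it does not give the size of difference needed for a call. Scaling by library size alone in place of TMM moved the median log2 difference of all genes from 0.02 to 0.14 and the counts at p of 0.05 to 1155 higher and 243 lower. With RLE scaling they were 510 and 815. EWSAT1 was the only called gene under all 3 scalings.

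Differences between deleted and intact libraries followed base composition. Over 7403 genes with a mean of at least 10 CPM, the log2 difference and the GC content of the transcript had a correlation of -0.66. Genes share libraries and are not independent, so the value is a description. In the lowest of 10 GC bins, from 31.8% to 40.8% GC, the median difference was 0.14, and in the highest, above 62.8% GC, it was -0.28. From the lowest bin to the highest, the median went from 0.34 to -0.64 in run 2, from 0.07 to -0.01 in run 1 and from 0.01 to -0.18 in run 3. Run 3 had its highest median, 0.10, in bin 5, and run 1 its lowest, -0.02, in bin 8. Without the intact PRL library of run 2 the correlation was -0.42, without the deleted one of that run -0.49, and without run 2 -0.26. In the untreated cells it was -0.58. Values from a fit with a GC and length offset, which brings the correlation to -0.01, are given beside many but not all of the genes and lists below. Where none is given, the value may still change with the offset. It brought RPL7 to 0.17, RPS6 to 0.27 and ADAM8 to -0.56, nearer to no difference, and KRT5 to 0.70, further from it. What lies behind the trend was not tested.

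**Figure D1:**
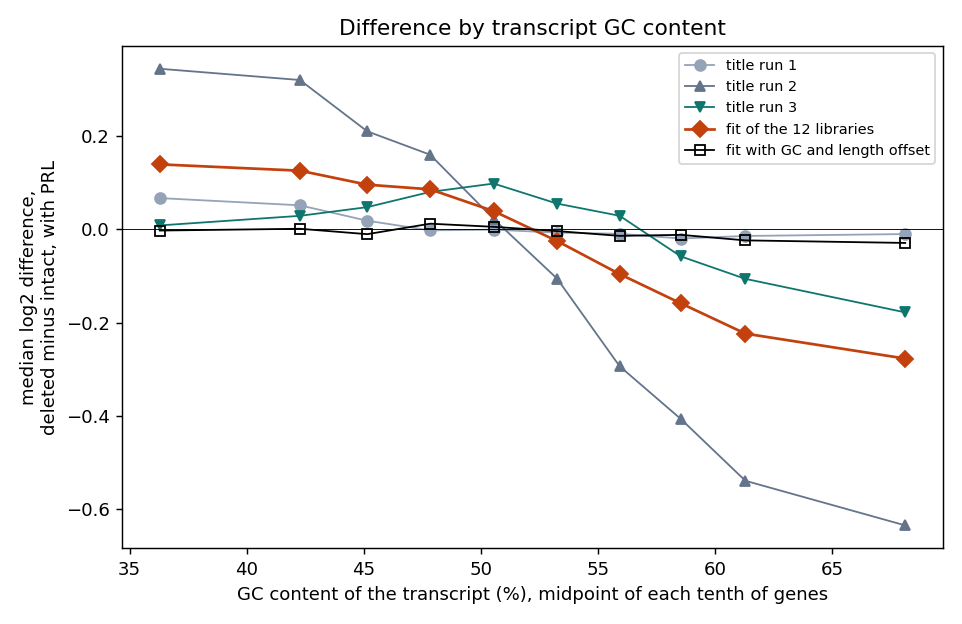
Median log2 difference of deleted minus intact PRL libraries in 10 bins of transcript GC content, for the 3 title runs, the fit of the 12 libraries, and the fit with a GC and length offset. Run 2 falls from 0.34 in the lowest bin to -0.64 in the highest, while the offset fit stays within 0.03 of 0.

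EWSAT1 is a long noncoding RNA first known as a transcript raised by the EWS-FLI1 fusion in Ewing sarcoma. The gene (ENSG00000212766) lies on the + strand of chr15, 69072926 to 69095820 (GRCh38, GENCODE 29). Its RefSeq promoter, the 250 bases before the annotated start, is printed because EWSAT1 alone was called, beside that of CISH, the gene with the smallest p for PRL. Capitals mark the STAT5-type motif TTCNNNGAA, which reads the same on both strands.
EWSAT1 promoter, chr15:69080600-69080849 (GRCh38.p14, + strand): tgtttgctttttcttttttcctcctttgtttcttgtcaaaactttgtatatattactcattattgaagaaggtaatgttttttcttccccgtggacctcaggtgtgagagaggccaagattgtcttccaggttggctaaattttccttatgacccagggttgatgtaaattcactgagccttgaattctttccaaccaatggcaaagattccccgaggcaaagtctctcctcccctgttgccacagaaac
CISH promoter, chr3:50611775-50612024 (GRCh38.p14, - strand): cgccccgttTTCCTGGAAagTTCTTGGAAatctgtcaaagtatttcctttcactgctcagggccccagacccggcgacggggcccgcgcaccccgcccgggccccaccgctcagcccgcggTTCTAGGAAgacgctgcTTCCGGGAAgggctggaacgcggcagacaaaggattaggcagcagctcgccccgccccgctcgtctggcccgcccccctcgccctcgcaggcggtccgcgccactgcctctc
The CISH window holds 4 matches, the EWSAT1 window 0. Of 35116 RefSeq promoter windows of this length, 2306 (6.57%) hold at least 1. GC content was 41.2% for EWSAT1 and 68.8% for CISH. The RefSeq start of EWSAT1 lies inside the GENCODE 29 gene span. A match is a description of the letters, and no match says only that these letters are not in the window.

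EWSAT1 stood at 0.453, 0.418 and 0.414 CPM in the intact PRL libraries of runs 1, 2 and 3. With the I-tail deleted it stood at 3.33, 4.31 and 2.95 CPM. Every deleted library was above every intact one, by a wide gap. EWSAT1 rose by 3.03 ± 0.32 on the log2 scale (edgeR quasi-likelihood test, adjusted p = 0.00178), from 0.429 ± 0.0214 to 3.53 ± 0.705 CPM (SD over the 3 libraries). In untreated cells, which are other libraries of the same runs, EWSAT1 was at 0.672, 0.248 and 0.382 CPM in intact and 4.02, 3.89 and 3.15 CPM in deleted cells. Its difference there was 3.07 ± 0.31 (adjusted p = 0.00121), and EWSAT1 was also the 1 gene called without hormone (0.00566%). The difference between these effects, with minus without PRL, was -0.04 ± 0.45 (adjusted p = 1). EWSAT1 was called in 25 of 28 settings, at 2.80 to 3.21 over all of them. It was not called without run 1 (3.13, adjusted p = 0.124), without run 3 (3.11, 0.703), or in a fit to the 6 PRL libraries alone (2.995, 0.166). Without run 2 it was still called. Why the call changed between these settings was not tested. With the GC and length offset it was 2.95 (adjusted p = 0.00212).

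Of the genes within 250 kb of EWSAT1, 4 others were tested and none was called. AC027088.2, a noncoding RNA gene on the same strand (69080879 to 69099987), overlaps EWSAT1 and was not tested. Genes that overlap in this way may have shared reads. SPESP1, a sperm equatorial segment protein gene 126115 bp away, was 0.62 higher with PRL and differed by -0.12 without it. The NADPH oxidase gene NOX5, 10183 bp away, was at -0.51. PAQR5, a membrane progestin receptor gene, was at -0.48 and GLCE, which makes an enzyme of heparan sulfate synthesis, at 0.15.

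No gene other than EWSAT1 passed the threshold in this test, while DESeq2 called 11 genes and limma-voom 8. Both called EWSAT1, S100A14, MB, PFDN4, RSL24D1, KRT14 and ENSG00000287458. DESeq2 also called ESRP1, GIMAP6, RPS7 and TRAPPC14, and limma-voom MUC17. With edgeR, the 19 genes with the next smallest p, at a mean of at least 1 CPM, had adjusted p from 0.153 to 0.63. Of the 20 with EWSAT1, 16 were higher and 4 lower in deleted cells, all 20 had 1 sign in the 3 runs, and 12 had ranges that did not overlap. The 20 were picked by p in this same comparison, so these counts follow in part from the choice and are a description. Over all genes, 14.6% were higher and 13% lower in each run, and ranges were apart for 2.89% and 2.06%. Several are known as epithelial genes. S100A14, a calcium-binding S100 protein of epithelia, stood at 24.2, 51.04 and 81.3 CPM in intact libraries 1, 2 and 3 and at 32.1, 111 and 158 CPM in the deleted ones. In each run the deleted library was higher, although the runs differed from each other by more than the groups did and the group ranges overlapped. The difference was 0.83 ± 0.14 (adjusted p = 0.153) and without PRL 0.73.

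ESRP1, which directs the epithelial splicing programme, stood at 2.33, 3.71 and 9.04 CPM in intact and 4.47, 9.83 and 14.3 CPM in deleted libraries. Each deleted library was above the intact one of its run. The difference was 0.99 ± 0.17 (adjusted p = 0.153), 0.86 without PRL. CDH1, the adherens junction protein E-cadherin, stood at 9.89, 18.9 and 39.3 CPM in intact and 14.4, 46.5 and 57.6 CPM in deleted libraries, again higher in each run with overlapping groups. Its difference was 0.79 ± 0.17 (adjusted p = 0.586), 0.89 without PRL. AP1M2, the epithelial subunit of a clathrin adaptor, stood at 2.94, 12.8 and 22.1 CPM in intact and 5.31, 17.4 and 36.5 CPM in deleted libraries. Run 1 held the lowest library of either group, and each run had the deleted one higher. The difference was 0.67 ± 0.14 (adjusted p = 0.557).

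KRT14, a keratin of basal cells, stood at 14.3, 37.9 and 59.7 CPM in intact and 20.4, 51.4 and 96.3 CPM in deleted libraries. The gap between runs 1 and 3 within a group was wider than that between the groups in any run, and every run had the deleted library higher. The difference was 0.55 ± 0.11 (adjusted p = 0.345), 0.45 without PRL, and 0.70 with the GC and length offset (adjusted p = 0.0965). KRT5, its basal partner, stood at 340.2, 995 and 2363 CPM in intact and 416, 2209 and 3331 CPM in deleted libraries. Run 2 showed the widest gap. The difference was 0.62 ± 0.16 (adjusted p = 0.63).

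**Figure D2:**
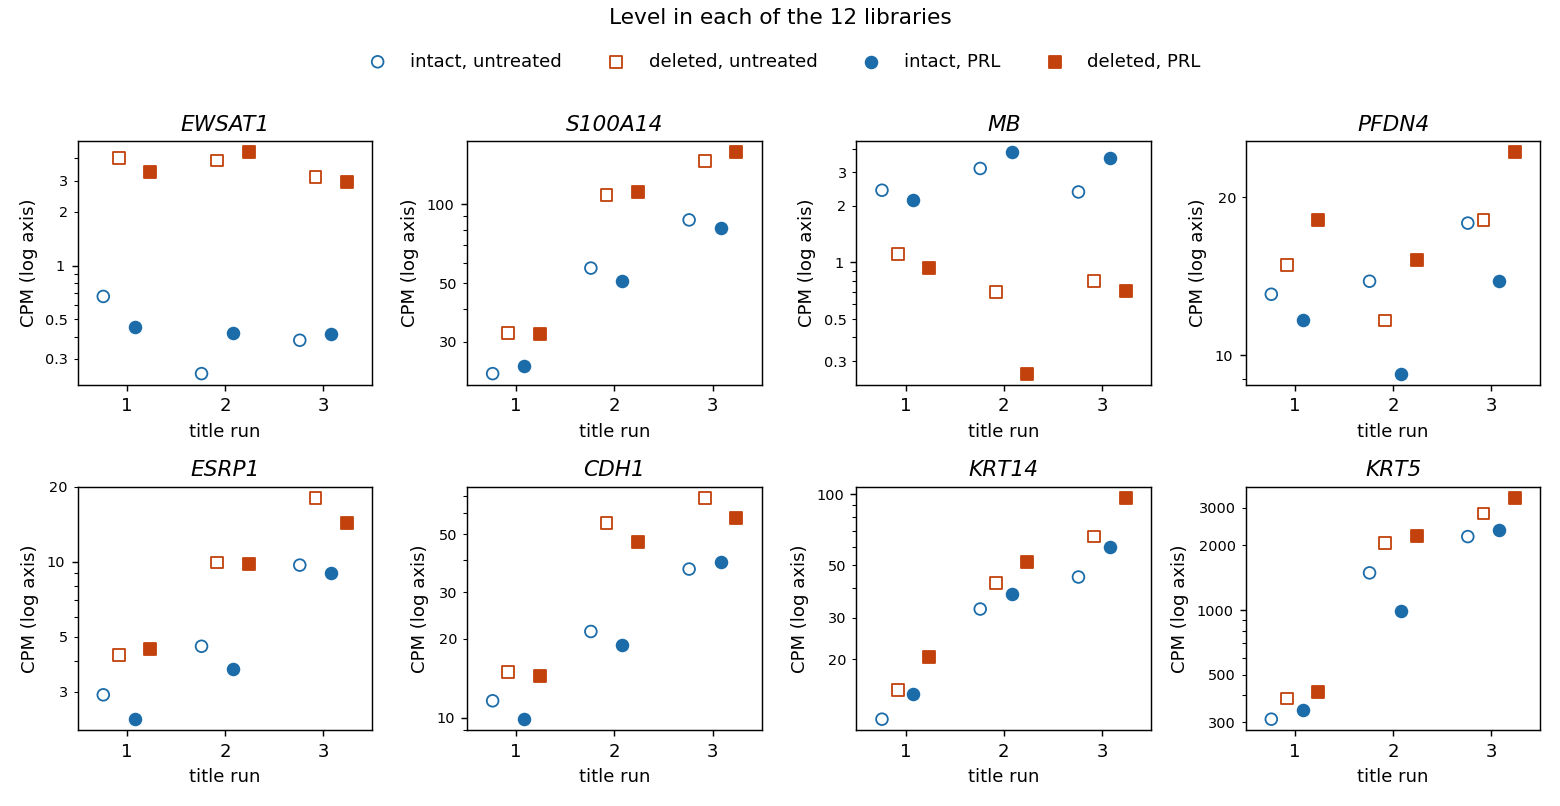
Level of 8 genes in each of the 12 libraries, in CPM on a log axis, by title run; circles are intact and squares deleted cells, filled with PRL and open without. EWSAT1 stands apart in all 3 runs, whereas S100A14, ESRP1, CDH1, KRT14 and KRT5 are higher with the deletion inside each run while the groups overlap.

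Among the 4 lower genes of the 20, MB, the gene of the oxygen-binding protein myoglobin, had the largest difference. It stood at 2.14, 3.83 and 3.56 CPM in intact and 0.934, 0.257 and 0.706 CPM in deleted libraries, with no overlap. The difference was -2.32 ± 0.40 (adjusted p = 0.153), and -1.61 without PRL. ADAM8, a membrane metalloprotease, stood at 30.01, 53.5 and 27.7 CPM in intact and 27.4, 18.6 and 16.8 CPM in deleted libraries. All deleted values were below all intact ones, by little in run 1 and by most in run 2. The difference was -0.82 ± 0.21 (adjusted p = 0.63), -0.47 without PRL. TRAPPC14, a subunit of a vesicle tethering complex, was at -0.54 ± 0.12 and the pseudogene ADAMTS7P4 at -0.87 ± 0.21. With the GC and length offset, TRAPPC14 was at -0.33 with PRL and 0.00 without, and ADAMTS7P4 at -0.60 with PRL. Reads of a pseudogene can be shared with its near-identical relatives, so the ADAMTS7P4 values are uncertain.

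GIMAP6, a GTPase gene known from lymphocytes, stood at 0.389, 0.508 and 0.219 CPM in intact and 1.73, 1.09 and 2.31 CPM in deleted libraries. All 3 deleted libraries were above the intact ones at a low level. The difference was 2.24 ± 0.48 (adjusted p = 0.585) and 3.23 ± 0.51 without PRL. Levels of leukocyte markers are given above, and their part in this difference was not tested. ENSG00000287458, an entry without a symbol and named here after its values were seen, stood at 1.49, 1.02 and 2.34 CPM in intact and 0.200, 0.257 and 0.536 CPM in deleted libraries. The groups did not overlap. The difference was -2.32 ± 0.44 (adjusted p = 0.237) and -2.92 ± 0.44 without PRL (adjusted p = 0.0776).

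For 7 of the 20 the difference with PRL and that without were themselves apart at an unadjusted p of 0.05: PFDN4, RSL24D1, AP1M2, EIF3M, COPS4, NDUFA4 and CCNG1. PFDN4, a subunit of the prefoldin chaperone, stood at 11.7, 9.23 and 13.8 CPM in intact and 18.1, 15.2 and 24.3 CPM in deleted PRL libraries. All 3 deleted values were above all intact ones. The difference was 0.72 ± 0.13 (adjusted p = 0.153), and -0.02 in untreated cells. The interaction, which is the deletion effect with PRL minus that without, was 0.74 ± 0.18 (adjusted p = 1). RSL24D1, a ribosome assembly factor, stood at 13.99, 13.7 and 18.01 CPM in intact and 21.1, 24.3 and 24.9 CPM in deleted libraries. The deleted library was higher in every run. The difference was 0.63 ± 0.12 with PRL and 0.01 without (interaction 0.62 ± 0.17, adjusted p = 1). COPS4, of the COP9 signalosome, was at 0.53 with PRL and -0.11 without (interaction 0.64 ± 0.18). CCNG1, a cyclin gene and p53 target, was at 0.48 and -0.03 (interaction 0.52 ± 0.18).

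The rest of the 20 act in translation and respiration. EIF3M, an initiation factor subunit, was 0.45 higher, the ribosomal proteins RPS7 and RPS3A 0.52 and 0.65, and NDUFA4, a small respiratory chain subunit, 0.41. Outside the 20, the mitochondrial ribosomal protein gene MRPL1 was 0.69 higher. With the GC and length offset the values were smaller: 0.51 for PFDN4, 0.43 for RSL24D1, 0.40 for COPS4, 0.31 for CCNG1, 0.32 for EIF3M, 0.42 for RPS7, 0.47 for RPS3A and 0.24 for NDUFA4. Over all genes, 345 (1.95%) had an interaction at an unadjusted p of 0.05, and 0 (0%) were called for it after adjustment with edgeR, DESeq2 or limma-voom. The 20 had the smallest p in a part of that same interaction, so the 7 among them are a description.

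For most of the genes the direction was the same in untreated cells. Of the 20, 16 (80%) had the same sign there, 9 (45%) with an unadjusted p of 0.05, and 6 were also among the 20 named for untreated cells. Of 1156 genes at that p with PRL and a mean of 1 CPM, 84.9% had the same sign without PRL and 15.5% also passed it there, against 69.6% and 5.22% of all 12894 genes at that level. Without PRL, 525 genes (2.97%) were higher and 376 (2.13%) lower with the deletion at an unadjusted p of 0.05. The libraries of the 2 comparisons are distinct but come from the same runs. Over 7419 genes with a mean of 10 CPM, the 2 sets of log2 differences had a correlation of 0.71, or 0.57 with the GC and length offset. The within-run differences with PRL had correlations of 0.13 between runs 1 and 2, 0.13 between 1 and 3 and 0.00 between 2 and 3. Their SD over these genes was 0.13 in run 1, 0.50 in run 2 and 0.27 in run 3.

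**Figure D3:**
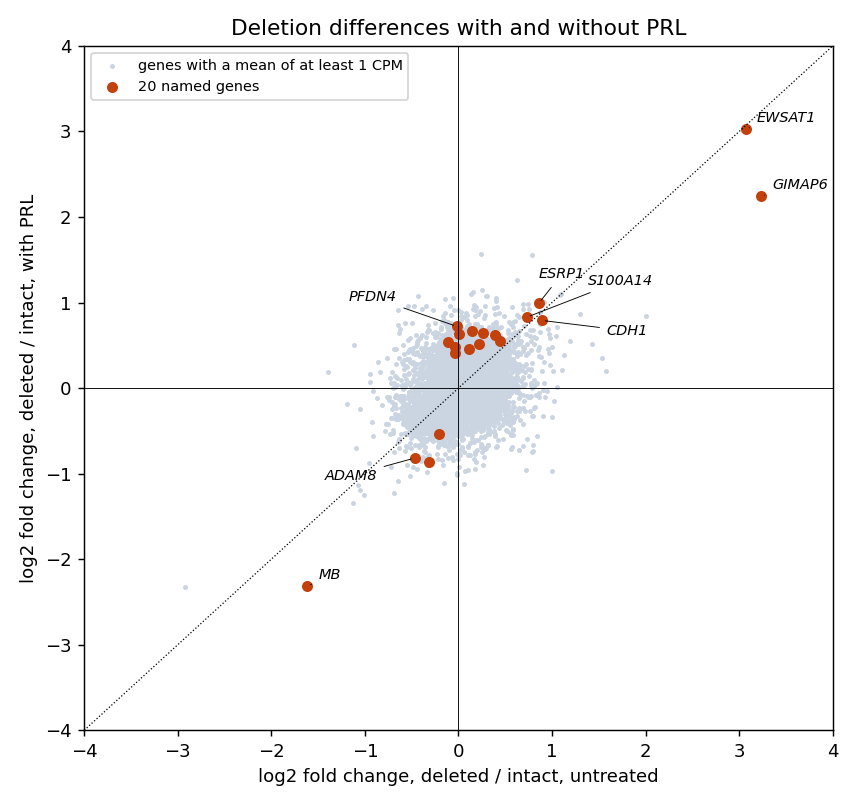
Log2 difference of deleted minus intact cells with PRL (vertical) against that without (horizontal), 1 point per gene with a mean of at least 1 CPM, with the 20 named genes in red and a dotted line of equal differences. EWSAT1 lies near 3 on both axes, while PFDN4 is at 0.72 with PRL and -0.02 without.

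The basal mammary epithelium list held 16 genes, all tested. None was called, 8 (50%) were higher and 1 lower with the deletion at an unadjusted p of 0.05, and the median log2 difference was 0.41, beside 3.54% higher, 3.86% lower and a median of 0.02 over all genes. The list medians within runs 1, 2 and 3 were 0.16, 0.45 and 0.13. Apart from the genes among the 20, no member of any list had an adjusted p under 0.630 in edgeR's test, so list members below are given as sizes with standard errors. Beside the keratins above, KRT6A was at 0.58 ± 0.17, the laminin chain LAMA3 at 0.43 ± 0.13, and the basal transcription factor TP63 at 0.67 ± 0.23. COL17A1, the hemidesmosomal collagen, was at 0.60, KRT16 at 0.41 and KRT17 at 0.28. KRT6B, at low level, was at -1.25. TP63 stood at 8.64, 8.40 and 18.8 CPM in intact and 8.07, 23.5 and 31.3 CPM in deleted libraries. Run 2 had the wide gap and in run 1 the deleted library was slightly lower. The offset fit gave 7 higher, 0 lower and a median of 0.39. Without the intact PRL library of run 2 the list had 4 higher, 1 lower and a median of 0.24, and without run 2 a median of 0.17.

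Epithelial junction and polarity genes, 25 of 25 tested, had 8 higher (32%) and 1 lower, with a median of 0.16 and run medians of 0.16, 0.46 and 0.02. In untreated cells 11 were higher and 0 lower, with a median of 0.47. After ESRP1 and CDH1 came P-cadherin, CDH3, which stood at 47, 90.2 and 142 CPM in intact and 53.4, 129 and 219 CPM in deleted libraries. It was higher in each run, with overlapping groups. The difference was 0.45 ± 0.12. The small GTPase RAB25 was at 0.71, the epithelial transcription factor GRHL2 at 1.10, the polarity protein CRB3 at 0.61, desmoplakin, DSP, at 0.36 and EPCAM at 0.52. The tight junction gene CLDN4 was the lower one, at -0.42. GRHL2 stood at 2.35, 1.11 and 3.75 CPM in intact and 2.31, 5.83 and 8.69 CPM in deleted libraries, alike in run 1 and apart in runs 2 and 3. With the offset the list had 8 higher, 0 lower and a median of 0.17; without the deleted PRL library of run 2 it had 5 higher, 0 lower and a median of 0.06.

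Among the other lineage lists, luminal mammary epithelium, 11 of 17 tested, had 1 higher and 2 lower and a median of -0.24. The mucin MUC1 was at -0.36 (-0.03 with the offset) and KRT19, at 0.486 to 1.34 CPM over the 6 libraries, at -0.97. The secreted protein gene AGR2, below 1 CPM in all 6 libraries, was at 2.51. The abundant keratins KRT7, KRT8 and KRT18 were lower with the deletion in run 2 and higher in run 3. KRT7 stood at 1209, 5304 and 3315 CPM in intact and 1288, 2110 and 3928 CPM in deleted libraries. With the offset the list had 1 higher, 0 lower and a median of -0.15, and without run 2 its median was 0.06. Mesenchymal and EMT genes, 21 of 22 tested, had 1 higher, the collagen-crosslinking enzyme LOX at 0.26, 0 lower, and a median of 0.03. With the offset LOX was at 0.13 and no longer passed that p, while the list had 1 other gene higher, 2 lower and a median of 0.09. Of 7 tested fibroblast markers, the proteoglycan gene DCN was the 1 higher, at 0.47. Only 3 of the 7 had a log2 difference above 0, and their median was -0.09, or 0.07 with the offset. Of 12 milk protein genes 5 were tested. LTF, the gene of lactoferrin, had 0 counts in all 3 intact PRL libraries and 0.156, 0.171 and 0.0730 CPM in the deleted ones, levels of a few counts per library. Epidermal differentiation genes, 18 of 30 tested, had 0 at an unadjusted p of 0.05 in edgeR's test.

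**Figure D4:**
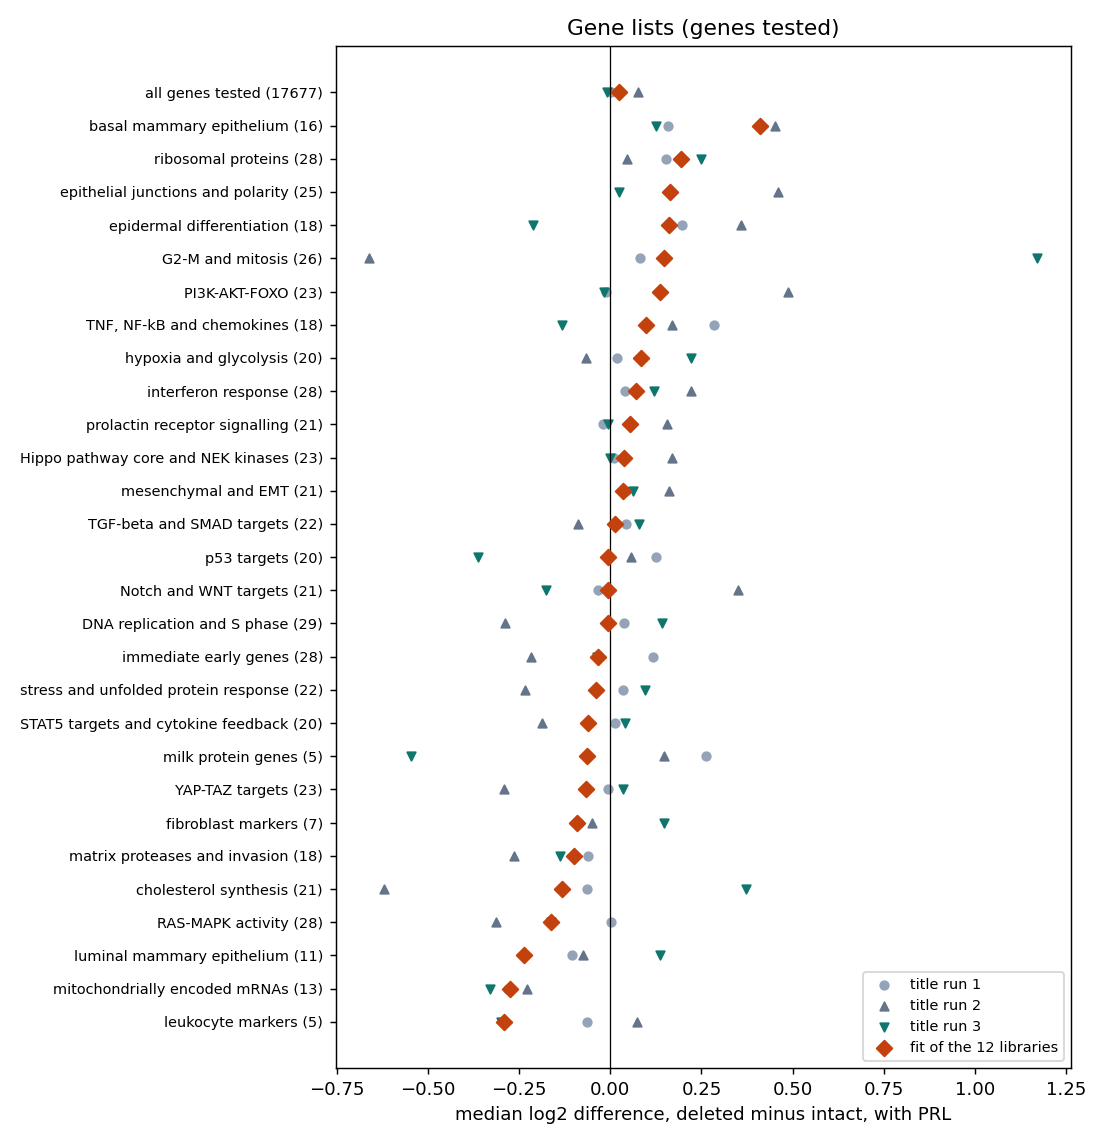
Median log2 difference of deleted minus intact PRL libraries over the tested members of each gene list, whose number is in brackets; diamonds are the fit of the 12 libraries and the other symbols the 3 title runs. Of the lists shown, basal epithelial genes have the highest fitted median, 0.41, and 5 leukocyte markers and 13 mitochondrially encoded mRNAs the lowest, -0.29 and -0.28; all genes are at 0.02.

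Of 28 ribosomal protein genes tested, 10 (35.7%) were higher and 0 lower at an unadjusted p of 0.05, none was called, and the median was 0.19. Run medians were 0.15, 0.05 and 0.25, and 14 of the 28 were higher in all 3 runs. Shares over all genes were 3.54% higher at that p, 14.6% higher in all 3 runs and 2.89% with deleted libraries all above intact ones. RPS6, the S6 kinase substrate of the small subunit, stood at 1034, 805 and 866 CPM in intact and 1299, 1402 and 1017 CPM in deleted libraries. The lowest deleted library lay just below the highest intact one. The difference was 0.45 ± 0.14. RPL7, of the large subunit, was at 0.36 ± 0.12 and RPL23 at 0.35 ± 0.11, each with deleted libraries all above intact ones. Without PRL the list had 0 higher, 0 lower and a median of 0.06. The offset gave 9 higher and a median of 0.13, and leaving out run 3 gave 2 higher and a median of 0.08. Processed pseudogenes of these genes could share reads with them.

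Mitochondrially encoded mRNAs, which specify respiratory chain subunits, were at lower levels with the deletion. All 13 had a log2 difference below 0, 6 (46.2%) at an unadjusted p of 0.05, and 11 were lower in all 3 runs. Shares over all genes were 3.86% lower at that p, 13% lower in all 3 runs and 2.06% with deleted libraries all below intact ones. The median was -0.28 with PRL, with run medians of -0.28, -0.23 and -0.33, and -0.11 without PRL. MT-ND1, a complex I subunit, stood at 9225, 11771 and 10268 CPM in intact and 7243, 9039.5 and 6982 CPM in deleted libraries. All 3 deleted libraries were below all intact ones. The difference was -0.43 ± 0.13 (adjusted p = 0.63). MT-ND6 was at -0.33 ± 0.13 and MT-ATP6, a subunit of ATP synthase, at -0.27 ± 0.12. Mitochondrial transcripts share 1 genome and precursor, so the 13 do not vary independently. Their share of all counts was 12.4, 9.94 and 10.96% in intact and 10.5, 10.4 and 8.94% in deleted libraries 1, 2 and 3. In run 2 the deleted share was the higher one, while the TMM-scaled levels of the list were lower. Scaling by library size alone gave 1 lower and a median of -0.16, the offset 13 lower and -0.45, and leaving out the intact PRL library of run 3 gave 0 lower and -0.22.

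Components of PRL receptor signalling were tested for all 21 genes of the list: 0 were higher and 1 lower at an unadjusted p of 0.05, and the median was 0.06. With the offset there were 1 higher, 0 lower and a median of 0.02, the higher one being VAV2 at 0.27. The lower one, the transcription factor STAT5A, stood at 12.8, 15.7 and 17.6 CPM in intact and 11.1, 10.3 and 14.7 CPM in deleted libraries. It was lower in each run and the groups overlapped. The difference was -0.35 ± 0.13 (adjusted p = 0.63), -0.14 without PRL and -0.20 with the offset. The kinase JAK2 was at -0.03 ± 0.31, STAT5B at 0.06 ± 0.10, STAT3 at 0.11 ± 0.12 and JAK1 at 0.20 ± 0.12. Among the adaptors and exchange factors SHC1 was at -0.23 ± 0.13, GRB2 at 0.12 ± 0.12, VAV2 at 0.10 ± 0.11 and VAV3 at 0.04 ± 0.26. The kinases SRC, FYN, NEK3 and PAK1 were at -0.11, 0.09, 0.02 and 0.05, the phosphatase PTPN11 at 0.12, the prolyl isomerase PPIA at 0.21, and the receptors EGFR and ERBB2 at 0.10 and -0.18. The exchange factor SOS1 was at 0.20 and the adaptor GAB2 at -0.31. The labels do not say if counting used strand, so overlapping genes, such as RPL6 beside PTPN11, LAMTOR4 beside TRAPPC14 or SH3D19 beside RPS3A, may have shared reads.

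Of 20 tested STAT5 targets and cytokine feedback genes, 1 was higher and 3 lower, with a median of -0.06. CISH, the feedback inhibitor whose promoter is shown above, stood at 54.3, 56.4 and 70.7 CPM in intact and 56.7, 55 and 66.3 CPM in deleted PRL libraries. The values interleave, and the difference was -0.02 ± 0.13 (adjusted p = 0.972), although PRL raised CISH by 3.85 ± 0.11 on the log2 scale averaged over the receptor pairs (adjusted p = 1.22e-11). The HLH inhibitor ID2 was at 0.53 ± 0.18, the feedback inhibitor SOCS3 at -0.37 ± 0.14, the survival gene BCL2L1 at -0.51 ± 0.20 and the kinase PIM2 at -0.29 ± 0.12. BCL2L1 stood at 95.9, 293 and 179 CPM in intact and 95.8, 125 and 152 CPM in deleted libraries, level in run 1 and apart chiefly in run 2. Without the deleted PRL library of run 2 the list had 0 higher and 0 lower, and with the offset 3 higher, 3 lower and a median of 0.02.

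Immediate early genes, 28 of 28 tested, had 0 higher and 3 lower, and a median of -0.03. The 3 were KLF2 at -0.63 ± 0.23, EGR1 at -0.51 ± 0.23 and the mRNA decay factor ZFP36 at -0.27 ± 0.13. EGR1 stood at 20.5, 35.9 and 22.6 CPM in intact and 23.5, 18.4 and 13.3 CPM in deleted libraries. In run 1 the deleted library was higher, in runs 2 and 3 lower. The offset gave 0 higher and 0 lower, as did leaving out either PRL library of run 2. RAS-MAPK activity genes, 28 tested, had 0 higher and 4 lower (14.3%, beside 3.86% over all genes), with a median of -0.16. The RAS pathway inhibitor SPRED3 was at -0.67 ± 0.22, the ERK-responsive factors ETV4 at -0.93 ± 0.36 and ETV5 at -0.36 ± 0.16, and the receptor EPHA2 at -0.36 ± 0.16. SPRED3 stood at 13.9, 42.4 and 36.9 CPM in intact and 15.6, 19.8 and 19.2 CPM in deleted libraries, slightly higher with the deletion in run 1 and lower in runs 2 and 3. The offset gave 6 lower and a median of -0.18. Without the intact PRL library of run 2 there were 2 lower, and without the deleted one 0 lower.

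Genes that responded to PRL were then read for their level in deleted against intact PRL cells. The PRL effect averaged over the receptor pairs weighs both alike, so the choice of these genes does not favour a direction of the deletion difference. It raised 167 genes (0.945%) and lowered 31 (0.175%) at an adjusted p of 0.05. Of these 198, 0 were called for the deletion in PRL cells with edgeR and 1, KRT14, with DESeq2 or limma-voom, and 18 (9.09%) had an unadjusted p of 0.05. Over all genes, 3.54% were higher and 3.86% lower at that p. Among the 167 raised by PRL, 5 were higher and 11 lower with the deletion, with a median of -0.10. Among the 31 lowered, 2 were higher and 0 lower, with a median of 0.00. With the offset the raised genes had 9 higher, 6 lower and a median of 0.01. Without the intact PRL library of run 2 they had 4 higher, 0 lower and a median of 0.02. The largest deletion difference among the 198 was 0.85 for APOL4, an apolipoprotein L gene (adjusted p = 0.639). Counted along each gene's PRL direction, the interaction had a median of -0.04, and lay below 0, a smaller PRL effect in deleted cells, for 114 of 198. The median interaction over all genes, not counted along a PRL direction, was -0.02. No share over all genes is given beside the 114, so they are a description and not a result about these genes.

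By gene, the 10 with the smallest p for PRL stood as follows, the PRL effect first and the deletion difference in PRL cells second, both log2. They were CISH 3.85 and -0.02, IRS2 1.66 and 0.12 (an insulin receptor adaptor), SOWAHC 1.53 and 0.15, SOCS2 1.80 and 0.21 (a cytokine feedback inhibitor), JUN 1.78 and 0.00 (an AP-1 subunit), RARA 1.28 and -0.17 (a retinoic acid receptor), SMAD6 1.14 and 0.03 (an inhibitor of BMP signalling), BCL6 -2.23 and -0.10 (a repressor that STAT5 is known to oppose), TNS4 1.30 and -0.20 (a focal adhesion protein) and DNMBP 0.97 and -0.12. None of the 10 differed between the receptor pairs at an unadjusted p of 0.05 in the fit without an offset. With it IRS2, at 0.31, passed that p (adjusted p = 0.821). IRS2 stood at 238, 186 and 121 CPM in intact and 255, 182 and 153 CPM in deleted PRL libraries. SOCS2 stood at 17.7, 11.2 and 12.8 CPM in intact and 16.7, 14.3 and 16.6 CPM in deleted ones. For both genes the groups overlap. KRT14, described above, was the PRL-raised gene with the smallest p for the deletion. PDE4D, a phosphodiesterase gene that PRL lowered by 0.49, was 0.42 higher with the deletion. NAB2, a corepressor of EGR factors that PRL raised by 0.81, was at -0.45, and the transcriptional repressor PRDM1, raised by 0.73, at 0.66. These 3 were singled out after their values were seen.

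**Figure D5:**
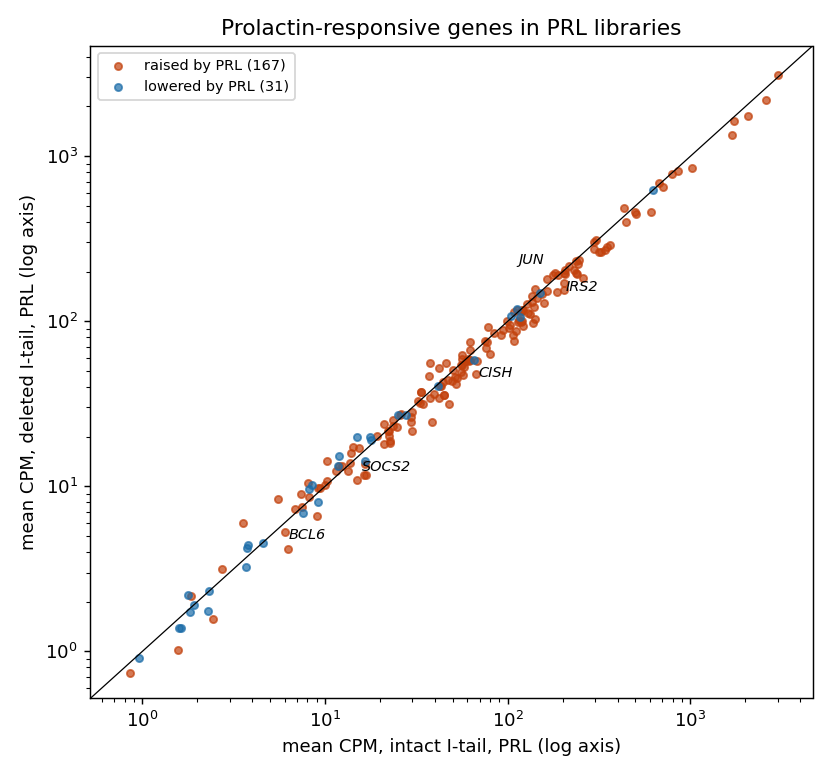
Mean CPM in the deleted PRL libraries against that in the intact ones, both on log axes, for the 167 genes raised and the 31 lowered by PRL; the line marks equal levels. The points lie along the line, and the largest fitted log2 difference among them is 0.85.

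The remaining lists had 0 called members and few below an unadjusted p of 0.05. Interferon response genes, 28 tested, had 3 higher and 0 lower: the antiviral tether BST2 at 0.52 ± 0.14, the MHC light chain B2M at 0.33 and IFI27 at 0.49, with a list median of 0.07, 0.07 with the offset. BST2 stood at 9.41, 12.4 and 6.95 CPM in intact and 11.96, 18 and 10.9 CPM in deleted libraries, higher in each run. TNF, NF-kB and chemokine genes, 18 tested, had 2 higher, the chemokine CXCL3 and the inhibitor of apoptosis BIRC3, both at low level, CXCL3 at 0.497, 0 and 0.0488 CPM in intact and 1.09, 0.371 and 0.730 CPM in deleted libraries. Matrix protease and invasion genes, 18 tested, had 1 higher, the protease inhibitor TIMP3 at 0.51, and 2 lower, ADAM8 and the urokinase receptor PLAUR at -0.33. PI3K-AKT-FOXO genes, 23 tested, had 2 higher, TXNIP at 0.38 and KLF9 at 0.47. TGF-beta and SMAD targets, 22 tested, had 2 lower, COL7A1 at -0.36 and TGFB1 at -0.44, which were -0.09 and -0.20 with the offset. The offset gave 1 higher, 3 lower and a median of -0.08 for the protease list, 1 higher, 1 lower and a median of 0.08 for the PI3K list and 1 higher, 1 lower and a median of 0.00 for the TGF-beta list.

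G2-M and mitosis genes, 26 tested, had 1 higher, the spindle checkpoint kinase BUB1B at 0.64 ± 0.28, and a median of 0.15 that covers run medians of 0.08, -0.66 and 1.17. The sign differed between runs 2 and 3. Without the intact PRL library of run 2 the list had 6 higher and a median of 0.42, without run 2 14 higher and 0.61, and without run 3 0 higher, 5 lower and -0.30. With the offset it had 0 higher, 0 lower and a median of 0.05. DNA replication genes, 29 tested, had 1 lower, E2F1 at -0.69. Cholesterol synthesis genes, 21 tested, had 0 higher, 1 lower and run medians of -0.06, -0.62 and 0.37. Their median was -0.13, and 0.11 with 2 higher and 0 lower without the intact PRL library of run 2. With the offset they had 0 higher, 0 lower and a median of -0.20. Among p53 targets, 20 tested, CCNG1 was higher and GDF15 and PLK3 lower, at -0.44 and -0.45. Notch and WNT targets, 21 tested, had 2 higher, the ligand JAG2 at 0.32 and the repressor HES1 at 0.42. Hypoxia and glycolysis genes, 20 tested, had 1 higher, NDRG1 at 0.47 ± 0.14. With the offset the p53 list had 1 higher, 0 lower and a median of -0.06 and the Notch and WNT list 1 higher, 0 lower and a median of 0.17. The Hippo, YAP-TAZ and stress response lists had 0 higher and 0 lower at an unadjusted p of 0.05 in edgeR's test. With the offset the Hippo list had 1 higher, 0 lower and a median of -0.03, the YAP-TAZ list 2 higher, 1 lower and a median of -0.01 and the stress list 1 higher, 1 lower and a median of -0.07. Without the intact PRL library of run 3 the YAP-TAZ list had 0 higher, 6 lower and a median of -0.20.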

How the data were processed

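The authors deposited 1 table of raw read counts per gene for the 12 libraries. Per the submitters' processing notes, reads were handled with FastQC, STAR 2.7.9a, Subread and featureCounts on GRCh38; neither an annotation release nor a strand setting is named there. The table has 62703 entries, 1 of them without values. Coordinates, transcript lengths and GC content come from GENCODE 29 and promoters from RefSeq.

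Counts were tested with edgeR 4.0.16 (R 4.3.3): filterByExpr, TMM scaling, robust quasi-likelihood F tests, a model of the 4 groups with title run as a block over all 12 libraries (6 residual degrees of freedom), and Benjamini-Hochberg adjustment over 17677 genes at 0.05. The run is a block because, in the labels' titles, each run of 4 holds 1 library per group. Replicates differed beyond sampling noise, so each was counted. The p-values rest on the spread left between these cultures after the run block, and not on a spread between independently made lines.

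The text names PRLR, the receptor signalling list, the 20 genes with the smallest p per contrast at a mean of at least 1 CPM, up to 3 genes per list and the 10 with the smallest p for PRL; others serve as context. Some items are not reported here. Members, lists and this rule were chosen with earlier results of these data known. Alternatives tried: other filters, scaling by RLE, upper quartile or library size, DESeq2 1.42.0, limma-voom (limma 3.58.1), no replicate block, the 6 PRL libraries alone, leaving out each library or run, and, added after seeing the data, GC and length offsets.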

Additional observations from a re-analysis of the deposited data

Results flagged for a closer look

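For 4 of the genes reported, the deleted library was on 1 side of the intact one in every run with PRL and on the other side in every run without it. COPS4, MRPL1, BUB1B and AGR2 were higher with the deletion in PRL cells and lower in untreated ones. Of all 17677 genes, 2576 were higher and 2293 lower in every run with PRL, and 3100 higher and 2200 lower without it. How many had opposite signs was not counted, and some reported genes were picked by a small interaction p. The 4 are therefore a description and not a result about these genes. The difference of the deletion effects, with minus without PRL, was 0.64 log2 for COPS4, 1.31 for MRPL1, 0.86 for BUB1B and 3.23 for AGR2. None passed adjustment over all genes in edgeR's test (adjusted p = 1), and AGR2 was below 1 CPM in the PRL libraries.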

How the results depend on the processing

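For the 20 named genes the call was kept in 527 combinations of gene and setting. In 30 a gene passed the threshold, in 3 EWSAT1 fell below it, and none turned a direction. All but EWSAT1 were not called in the main fit, so for them a kept call means still not called. The 20 were picked by p and each had 1 sign in the 3 runs. That no direction turned follows in part from this choice. The deletion with PRL called 41 genes with no count filter, 11 with DESeq2, 8 with limma-voom and 0 with the 6 PRL libraries alone, and 0 to 12 with 1 library or run left out; 0 came without run 1 or without run 3, 12 without run 2, and 2 without the intact PRL library of run 1. Its genes at an unadjusted p of 0.05, 1308 in all, numbered 2188 with no filter, 408 with the 6 PRL libraries alone and 478 to 2759 with 1 library or run left out, the lowest without the deleted PRL library of run 2 and the highest without the intact one of run 1. Without PRL, 37 genes were called with no filter, 14 with DESeq2, 17 with limma-voom, 12 with the GC and length offset and no intact PRL library of run 2, and 0 to 7 with 1 library or run left out. The averaged PRL effect, 198 genes, gave 739 with no filter, 496 with DESeq2, 1770 with limma-voom, 316 with that offset and no intact PRL library of run 2, and 59 to 519 with 1 library or run left out. The cause of these shifts was not tested. The interaction had 0 genes in every setting run.

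The labels do not say that a title run pairs the samples. Deleted and intact PRL libraries of the same run had correlated deviations of 0.54, 0.098 and 0.097 in runs 1, 2 and 3, and for all 12 libraries the best correlated library of another group was of their own run, a hint from the data and not the design. With no replicate block the deletion with PRL again called 1 gene, 286 had an unadjusted p of 0.05 (353 with the GC and length offset), and the averaged PRL effect called 21 (61 with the offset). Every basal and junction gene was then above that unadjusted p.

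List medians moved by more than their spread over the runs in 47 combinations of list and setting and by less in 793. For a typical gene, a difference much under 0.44 log2 had an unadjusted confidence interval that included no difference. Larger differences could still miss the adjusted threshold. Genes below 1 CPM rest on few counts.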

Other observations

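In the fit with a GC and length offset, a setting added after seeing the data, the 20 genes with the smallest p again began with EWSAT1 and included genes that the text above does not describe. LAD1, the gene of the basement membrane protein ladinin, was 0.73 ± 0.15 higher with the deletion in PRL cells, EPS8L1, a regulator of the actin cytoskeleton, 0.84 ± 0.19, and INAVA, a gene linked to epithelial junctions, 0.48 ± 0.11. The synaptotagmin gene SYT8 was 0.64 ± 0.14 higher. Without PRL these 4 stood at 0.45, 0.73, 0.50 and 0.62. The mitochondrial genes MT-ND6, MT-ATP6, MT-ND2 and MT-ND1 were at -0.51, -0.45, -0.44 and -0.57 with PRL and at -0.15, -0.14, -0.13 and -0.23 without it. Apart from EWSAT1, none was called, with edgeR adjusted p from 0.0965 for KRT14 to 0.434 for MT-ND1.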
